A study of Mus musculus with 4 samples.

Results

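The genes described here encode the machinery that copies DNA and drives cell division, together with stress-induced genes that halt it: cyclins, cyclin-dependent kinases (Cdk), Cdc and Polo-like kinase (Plk) genes, the MCM helicase, the polymerases alpha, delta and epsilon, the sliding clamp Pcna and its loader, the Gadd45 family and Cdkn1a. Members were chosen by gene symbol alone. On the Affymetrix MG_U74Av2 array 102 of the 12422 probe sets that are not controls carried such a symbol, and they stood for 77 genes. Some symbols matched by name only, such as Cdc42, a small GTPase of cell shape, and Cdk5, a kinase known from neurons.

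Liver RNA came from 4 groups of female mice, killed in the fed state at 8 months of age. They were HSL-null mice on a high-fat diet (FD, 58% of energy from fat), HSL-null mice on a normal diet (ND, 11%), wild-type mice on FD and wild-type mice on ND, each kept on its diet for 6 months. HSL-null mice lack hormone-sensitive lipase, the product of Lipe, in all tissues; the labels used here name neither strain nor allele. The study asked how this loss affects the metabolism of the liver. Each group was 1 pool on 1 array, with 4 livers in the pool for HSL-null mice on FD and 6 livers in each other pool. There was therefore no replicate, no test and no p-value, and "higher" and "lower" describe these 4 pools.

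In adult liver most hepatocytes rest outside the cell cycle and can re-enter it after injury or loss of tissue. D-type cyclins with Cdk4 open the way into S phase, the MCM complex unwinds DNA at licensed origins, and the clamp Pcna, loaded by the RFC complex, holds the polymerases on the template. Cyclins A and B with Cdk1 then drive mitosis. Cdkn1a (p21) blocks cyclin-dependent kinases, and the Gadd45 proteins are small stress-induced regulators that bind Pcna, Cdk1 and kinases of stress signalling.

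Signals are linear MAS5 intensities. Values under 6.1, the 25th percentile of all values, were raised to it before log2 was taken, and a probe set counted as kept if its 4 signals averaged 26.9 or more, which is the median average signal of all non-control probe sets. Of the 102 member probe sets, 62 passed, and they read 55 of the 77 genes; means of the 40 that did not pass ran from 0.6 to 26.0. The median signal of all non-control probe sets was 28.3 in HSL-null liver on FD, 25.4 in HSL-null liver on ND, 25.2 in wild-type liver on FD and 27.8 in wild-type liver on ND. The lower Lipe signals in HSL-null liver (15.9 on FD and 11.9 on ND, against 34.0 on FD and 28.0 on ND in wild type) came from a probe set that did not pass the filter, and the labels do not say whether the probes read the deleted part. All 8 hepatocyte markers on the array passed the filter. The wild-type ND pool stood apart in markers of exocrine pancreas, whose 5 genes on the array summed to 306.0 and 252.9 in HSL-null liver on FD and ND, against 243.4 and 758.3 in wild-type liver on FD and ND. All 5 were below 0 for genotype on ND (median log2 ratio -1.952, 4 at 2-fold) and for diet in wild type (median -1.48, 4 at 2-fold). That array enters every genotype ratio on ND and every diet ratio in wild type given here, and the part of this signal in them was not tested. The other 2 comparisons do not use it. The solution lot differed between the genotypes and was the same within each, so its effect and that of genotype cannot be told apart. A difference of 2-fold, or 1 on the log2 scale, is used as a mark of size. The SD of a log2 ratio, from the disagreement of 2 kept probe sets of 1 gene in 687 genes, was 0.298, which leaves out error shared by an array and the variation between animals.

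The upstream sequences below are shown for the Gadd45 genes, whose signals were high together on 1 array, and for Cks1b, which was higher on FD in both genotypes. They are RefSeq sequences of build GRCm38.p6, the 250 bases before the annotated start, and they lie at chr6:67037408-67037657 on the minus strand, chr10:80929841-80930090 on the plus strand, chr13:51846425-51846674 on the plus strand and chr3:89418292-89418541 on the minus strand. Each is written 5′ to 3′ on the strand of its gene. Capitals mark every match, on either strand, to CCAAT, the box bound by NF-Y; to CACGTG, an E-box; to TATAAA; to TTTGAA, an element known from genes of late cell cycle; and to GGGCGG, a GC box.

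Gadd45a: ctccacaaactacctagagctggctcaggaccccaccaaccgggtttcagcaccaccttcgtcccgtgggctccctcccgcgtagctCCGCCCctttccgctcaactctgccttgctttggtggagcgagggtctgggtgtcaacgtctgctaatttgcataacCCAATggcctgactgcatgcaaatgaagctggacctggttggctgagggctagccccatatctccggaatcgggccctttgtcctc
Gadd45b: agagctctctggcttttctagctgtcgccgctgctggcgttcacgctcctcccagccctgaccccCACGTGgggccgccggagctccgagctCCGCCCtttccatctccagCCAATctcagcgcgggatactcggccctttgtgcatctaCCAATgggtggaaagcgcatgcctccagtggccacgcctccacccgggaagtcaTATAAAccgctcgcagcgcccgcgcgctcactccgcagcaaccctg
Gadd45g: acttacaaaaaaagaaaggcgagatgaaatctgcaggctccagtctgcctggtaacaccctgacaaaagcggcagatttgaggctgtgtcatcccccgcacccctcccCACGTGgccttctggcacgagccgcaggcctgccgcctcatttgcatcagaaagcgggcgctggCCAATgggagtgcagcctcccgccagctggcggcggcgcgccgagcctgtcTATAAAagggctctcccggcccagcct
Cks1b: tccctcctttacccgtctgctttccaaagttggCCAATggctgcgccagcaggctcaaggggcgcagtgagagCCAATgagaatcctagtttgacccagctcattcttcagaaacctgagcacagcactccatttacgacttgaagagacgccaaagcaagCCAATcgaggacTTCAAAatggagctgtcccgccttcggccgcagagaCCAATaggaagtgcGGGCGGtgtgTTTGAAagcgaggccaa

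The CCAAT box was present in all 4, once in Gadd45a and Gadd45g, 2 times in Gadd45b and 4 times in Cks1b. Gadd45b and Gadd45g each held 1 E-box and 1 TATAAA, while Gadd45a and Cks1b held neither. Cks1b alone of the 4 held TTTGAA, at 2 places. Of the 67 member genes with a RefSeq window, 53.7% had CCAAT, 11.9% CACGTG, 7.46% TATAAA, 14.9% TTTGAA and 76.1% GGGCGG. Of all 27025 genes with a window, coding or not, the shares were 37.5%, 6.86%, 14.3%, 18.3% and 35.4%. The E2F-type words TTTGGCGC, TTTCGCGC and TTTCCCGC were each found in 4 of the 67 member genes (5.97%), against 0.485%, 0.3% and 1.03% of all genes; Mcm5 and Mcm6 held both TTTGGCGC and TTTCGCGC. These matches describe the letters in the windows, and the arrays do not measure them.

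Few member probe sets differed 2-fold. In HSL-null against wild-type liver on ND 1 of 62 did (1.61%), against 90 of the 5615 kept probe sets with 1 gene (1.6%). On FD 2 of 62 did (3.23%), with a background of 2.89%. For FD against ND there were 3 of 62 in HSL-null liver (4.84%), with a background of 1.57%, and 2 of 62 in wild-type liver (3.23%), with a background of 3.22%. By direction, genotype on ND gave 1 higher (Cdkn1a; background 0.463%) and 0 lower (background 1.14%), and genotype on FD 2 higher (Gadd45g and Plk1; background 1.92%) and 0 lower (background 0.962%). Diet gave 2 higher (Gadd45a and Plk1; background 0.873%) and 1 lower (Ccne1; background 0.695%) in HSL-null liver, and 0 higher (background 0.837%) and 2 lower (Plk1 and Pold2; background 2.39%) in wild-type liver. These are shares of so few probe sets that 1 more or less would change each of them. Kept probe sets with mean signals under 60, which made up 31 of the 62 members, were 2-fold different in 3.5% of cases on ND and 4.92% on FD between genotypes, and in 2.41% and 5.58% between diets in HSL-null and wild-type liver.

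At 1.5-fold more members were reached. For genotype on ND 1 of 62 was higher (1.61%, background 2.46%) and 5 were lower (8.06%, background 4.63%), namely Ccnt1, Cdc42se2, Gadd45a, Gadd45b and Mcm4. On FD 7 were higher (11.3%, background 9.28%), namely all 3 Gadd45 genes, Mcm4, Cdk7, Plk1 and Pold2, and 3 were lower (4.84%, background 3.74%), namely Ccnt1, Cdc42ep4 and Pole4. For diet 6 were higher in HSL-null liver (9.68%, background 4.22%), which were the 3 Gadd45 genes, Cks1b, Mcm4 and Plk1, and 4 were lower (6.45%, background 2.23%), which were Ccne1, Ccng2, Cdc42ep4 and Pold2. In wild-type liver 5 were higher (8.06%, background 4.76%), namely Ccnb2, Ccng1, Cdkn1a, Cks1b and 1 probe set of Pole3, and 5 were lower (8.06%, background 9.58%), namely Ccne1, Cdk7, Mcm4, Plk1 and Pold2.

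The members as a whole lay near all kept probe sets. Their median log2 ratio between genotypes was -0.055 on ND, where all kept probe sets had -0.018, and 0.043 on FD, where all had 0.069. For FD against ND it was 0.1 in HSL-null liver, against 0.042 for all, and -0.089 in wild-type liver, against -0.049 for all. The SD over the 62 members was 0.33 and 0.52 for genotype on ND and FD, and 0.42 and 0.49 for diet in HSL-null and wild-type liver. Median scaling of the arrays moved the median of all kept probe sets from -0.018 to 0.113, from 0.069 to -0.099, from 0.042 to -0.115 and from -0.049 to 0.093 in these 4 comparisons, so ratios of that size have no settled direction. It also turned the split of all kept probe sets at 2-fold from 108 higher and 54 lower to 57 and 85 for genotype on FD, and from 26 and 64 to 34 and 46 on ND. For diet the split went from 49 and 39 to 30 and 59 in HSL-null liver, and from 47 and 134 to 74 and 86 in wild-type liver.

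**Figure D1:**
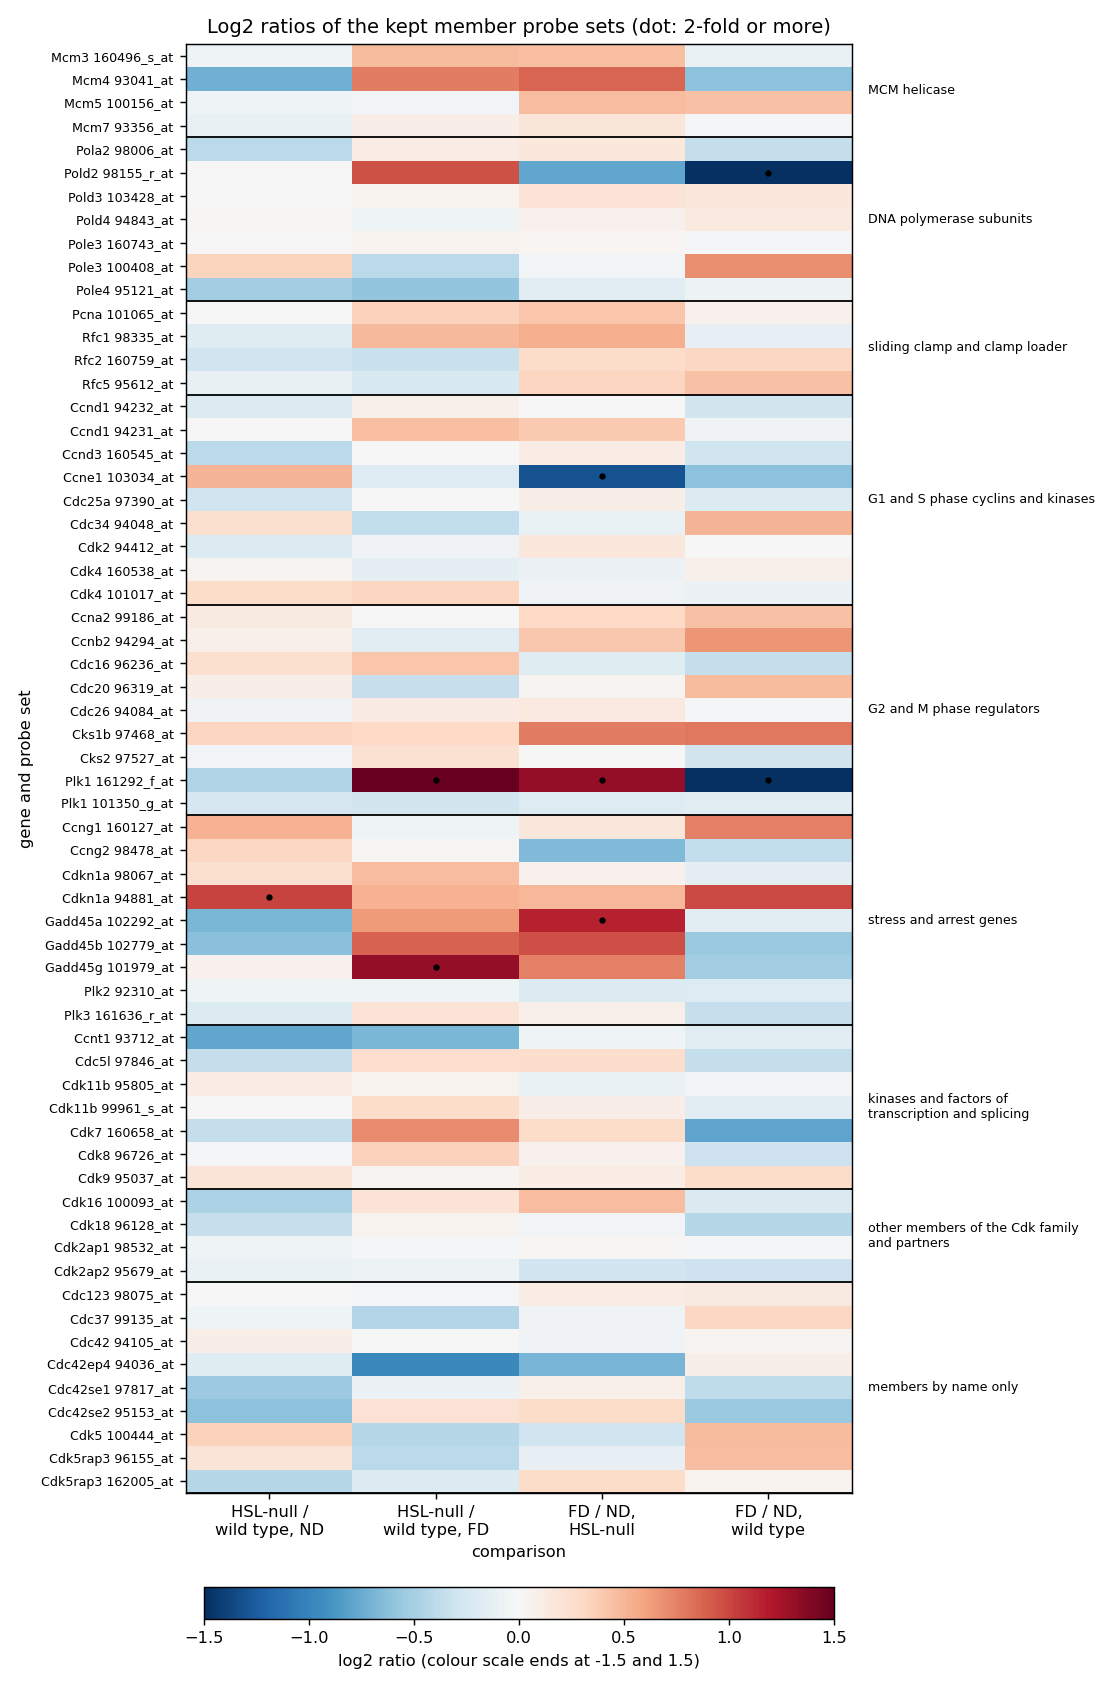
Log2 ratios of the 62 kept member probe sets (rows, grouped by role) in the 4 comparisons (columns); red is higher and blue lower in the group named first, and a dot marks a ratio of 2-fold or more. Most cells are pale, and the dots fall on Pold2, Ccne1, Plk1, Cdkn1a, Gadd45a and Gadd45g.

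The Gadd45 genes were all highest in HSL-null liver on FD. Gadd45a, induced by DNA damage and nutrient stress, had a signal of 127.6 there and 57.2 in HSL-null liver on ND, and 82.1 and 91.7 in wild-type liver on FD and ND. It was 2.23-fold higher on FD than on ND in HSL-null liver (log2 1.16) and had -0.16 in wild type. Against wild type, HSL-null liver had -0.68 on ND and 0.64 on FD. The lowest signal was thus on the HSL-null ND array, and both wild-type arrays lay between the HSL-null arrays.

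Gadd45b, a family member induced by cytokine and stress signals, followed the same order at the top. Its kept probe set had 44.9 and 23.0 in HSL-null liver on FD and ND, against 24.2 and 35.7 in wild-type liver on FD and ND. HSL-null liver had a log2 ratio of -0.63 to wild type on ND and 0.89 on FD, and FD against ND gave 0.97 in HSL-null and -0.56 in wild type. Another probe set, under the filter and with the suffix for probes shared within a sequence family, had 45.0 and 10.9 in HSL-null liver on FD and ND and 6.3 and 10.9 in wild-type liver on FD and ND, which is 7.14-fold higher in HSL-null than in wild type on FD. Both probe sets were highest in HSL-null liver on FD, and they did not share the low value on the HSL-null ND array.

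Gadd45g, the third member, had 113.3 and 67.5 in HSL-null liver on FD and ND, against 45.3 and 64.9 in wild-type liver on FD and ND. It was 2.5-fold higher in HSL-null than in wild-type liver on FD (log2 1.32), the same probe set having 0.06 on ND. The values on ND were close and those on FD lay on either side of them, with log2 ratios of FD to ND of 0.75 in HSL-null and -0.52 in wild-type liver. With each of the 3 other scalings (quantile, median and cyclic loess) all 4 Gadd45 probe sets were still highest in HSL-null liver on FD, at 1.23 times the next array or more.

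Cdkn1a, the p21 inhibitor of cyclin-dependent kinases, was read by a pair of kept probe sets. One had 68.9 and 48.7 in HSL-null liver on FD and ND, against 48.0 and 24.2 in wild-type liver on FD and ND, and was 2.01-fold higher in HSL-null than in wild-type liver on ND (log2 1.01) and 1.44-fold higher on FD. The other had 57.7 and 54.9 in HSL-null liver, against 42.0 and 46.6 in wild-type liver, a log2 ratio of 0.24 on ND and of 0.46 on FD. Both probe sets were thus higher in HSL-null than in wild-type liver on both diets. They did not give 1 answer on diet, since FD against ND in wild type was 0.99 at the first and -0.15 at the second, 1.14 apart. At 2-fold the first probe set was the only member called for genotype on ND, and with the floor at the median its ratio was 0.87.

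The other genes of stress and arrest went different ways. Ccng1, which encodes cyclin G1, a p53 target, had 68.6 and 61.1 in HSL-null liver on FD and ND, against 71.7 and 42.6 in wild-type liver on FD and ND, so the wild-type ND array stood apart at the low end. Ccng2, a cyclin of resting cells, had 93.8 and 147.7 in HSL-null liver, against 92.2 and 118.8 in wild-type liver, and was lower on FD than on ND in both genotypes (-0.66 and -0.37). Plk2, a stress-responsive Polo-like kinase, stayed between 64.6 and 77.5 on the 4 arrays. Plk3, read by a probe set of relaxed design rules, had 1135.5 and 1077.8 in HSL-null liver, against 983.9 and 1245.1 in wild-type liver, and log2 ratios between -0.34 and 0.21. Of the 9 kept probe sets of this group 7 were above 0 in the genotype comparison on FD, with a median of 0.458, and 5 were above 0 on ND, with a median of 0.057. Of all kept probe sets 58.4% were above 0 on FD and 47.3% on ND. Under median scaling 6 were above 0 on FD, with a median of 0.291.

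**Figure D2:**
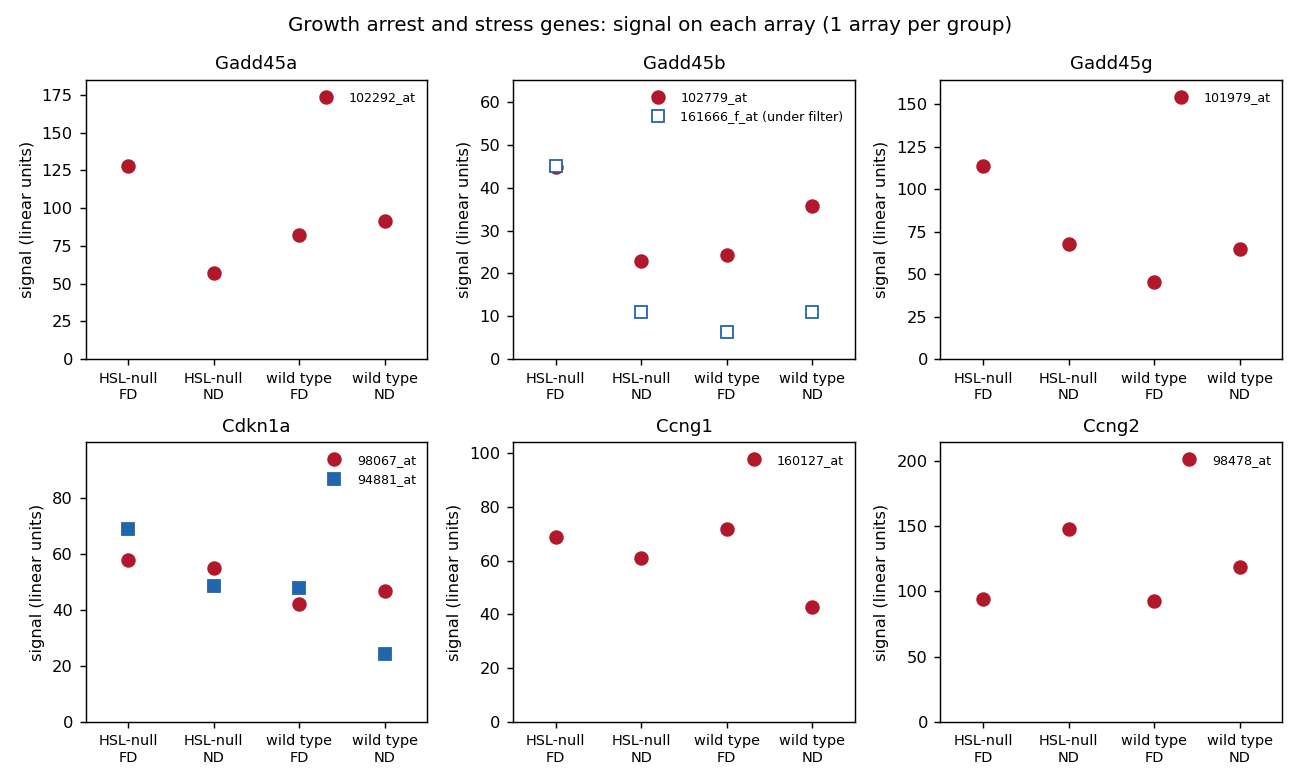
Signals (linear units) of Gadd45a, Gadd45b, Gadd45g, Cdkn1a, Ccng1 and Ccng2 on the 4 arrays, 1 point per array and probe set, with open squares for a probe set under the filter. The 3 Gadd45 genes have their highest point in HSL-null liver on FD, at 127.6, 44.9 and 113.3 for their kept probe sets.

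Genes of the p53 pathway outside the members showed few differences of that size. Of 12 listed genes on the array 11 passed the filter, and their median log2 ratio for genotype was 0.065 on ND and 0.144 on FD, with 1 gene 2-fold higher and 0 lower in each. The median on FD was -0.023 under median scaling and -0.004 under loess. Btg2, an antiproliferative early-response gene, had 201.8 and 136.7 in HSL-null liver on FD and ND, against 83.1 and 148.7 in wild-type liver on FD and ND, or 1.28 for genotype on FD. Ddit4, an inhibitor of mTORC1, had 122.1 and 92.4, against 69.7 and 44.5 (1.05 on ND and 0.81 on FD). Mdm4, a p53 inhibitor, had 41.0 and 38.1, against 25.1 and 51.2, and was the 1 gene 2-fold lower on FD than on ND in wild type (-1.03). Phlda3, a p53 target, had 44.1 and 33.4, against 39.9 and 23.1.

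Some markers of other cells moved with the genotype comparison on FD. All 9 kept Kupffer cell and macrophage markers, of 10 on the array, were above 0 there, with a median log2 ratio of 0.432, and their summed signal was 2319.2 and 2449.2 in HSL-null liver on FD and ND, against 1703.1 and 2597.0 in wild-type liver on FD and ND. Under quantile, loess and median scaling 8, 8 and 6 of the 9 were above 0. These counts use the brightest kept probe set of each gene. A dimmer kept probe set of Laptm5 had -0.18, against 0.6 at the one counted, and that of Csf1r had 0.35. By the sum of the markers, the wild-type FD array was the low one. It was also the lowest for the summed hepatocyte markers (22709.4) and endothelial markers (269.1), but the highest for red blood cell markers (3097.8). FD against ND in wild type gave a median of -0.447 for these Kupffer cell and macrophage markers and -0.446 for hepatocyte markers. Of all kept probe sets 58.4% were above 0 for genotype on FD. All 4 kept endothelial markers were too, and 3, 3 and 2 under quantile, loess and median scaling, while 4 of 8 hepatocyte markers were. Lymphocyte markers summed to 342.5 and 311.4 in HSL-null liver, against 265.4 and 413.3 in wild-type liver, with Cd2 and Cd8a under the floor on all arrays. Stellate cell markers summed to 1702.0 and 1687.4, against 1379.6 and 1650.1, with 5 of 5 kept above 0 on FD (4 of 5 under the other scalings). Neutrophil and marrow markers, of which only Lcn2 passed the filter out of 8 and Ngp was under the floor throughout, summed to 856.2 and 546.8, against 328.9 and 599.2. Most of each sum was Lcn2 alone, at 690.4 and 468.5, against 257.0 and 489.4. Its genotype ratio on FD was 1.43, but 0.29 at its dimmer kept probe set. Under the filter, S100a8, S100a9, Ltf, Camp and Elane were also highest in HSL-null liver on FD. Their genotype ratios on FD were 2.12, 2.03, 1.46, 1.14 and 0.62, from low signals. Mpo went the other way, with -0.34 at its brighter probe set. The part of these cell types in the Gadd45 ratios was not tested, and in pooled tissue fewer cells of a type and less RNA per cell cannot be told apart.

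The MCM helicase and the sliding clamp with its loader were higher on FD than on ND in HSL-null liver in all 8 kept probe sets, by log2 0.18 to 0.87 with a median of 0.433. In wild-type liver 4 of the same 8 were above 0, with a median of 0.016. After quantile, median and cyclic loess scaling all 8 remained above 0 in HSL-null liver, with medians of 0.325, 0.277 and 0.321, and 7 of 8 were above 0 in wild type, with medians of 0.104, 0.158 and 0.083. No probe set of the 8 reached 2-fold, and this group was picked after its values were seen. Of all kept probe sets 56.9% were above 0 for diet in HSL-null liver and 43.8% in wild-type liver.

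Mcm4, a subunit of the helicase core, had 40.2 and 22.0 in HSL-null liver on FD and ND, against 23.6 and 36.3 in wild-type liver on FD and ND. Between genotypes its log2 ratio was -0.72 on ND and 0.77 on FD, so the diets gave opposite signs 1.49 apart. Mcm3 had 56.7 and 41.6 in HSL-null liver, against 40.7 and 43.5 in wild-type liver, at its kept probe set. A dimmer probe set of Mcm3, under the filter, had 20.7 and 19.4, against 27.9 and 14.0, and was highest in wild-type liver on FD instead. Mcm5 had 38.0 and 27.7 in HSL-null liver, against 39.1 and 28.8 in wild-type liver, at its kept probe set, which was thus higher on FD in both genotypes, by 0.46 and 0.44. Its other probe set, under the filter, had 5.8 and 5.9, against 13.9 and 16.8. Both HSL-null values there were under the floor, and the diet ratio in wild type was -0.27. Mcm7 lay between 42.3 and 47.9 on the 4 arrays. Mcm2, under the filter, had 22.1 and 16.1, against 25.1 and 22.1, and Mcm6 was under the floor on every array.

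Pcna, the sliding clamp, had 170.0 and 127.1 in HSL-null liver on FD and ND, against 133.4 and 127.9 in wild-type liver on FD and ND. The HSL-null FD array stood above the other 3 arrays, which lay between 127.1 and 133.4. Its log2 ratio was 0.42 for diet in HSL-null liver and 0.35 for genotype on FD, each little more than the SD of 0.298. Under median scaling these were 0.26 and 0.18, with 0.2 for diet in wild type. Under quantile and loess scaling the diet ratio in HSL-null liver was 0.38 and 0.37, and the genotype ratio on FD 0.28 and 0.29. Rfc1, the large subunit of the loader, had 36.7 and 25.2, against 26.2 and 28.5, at its kept probe set. Its other probe set, under the filter, had 3.5 and 6.4, against 2.2 and 10.1. Rfc2 and Rfc5 were instead highest in wild-type liver on FD, at 83.4 and 62.6, with 66.3 and 53.2 in HSL-null liver on FD. The other probe set of Rfc5, under the filter, had 13.4 and 15.9, against 16.8 and 9.0, with -0.25 for diet in HSL-null liver.

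**Figure D3:**
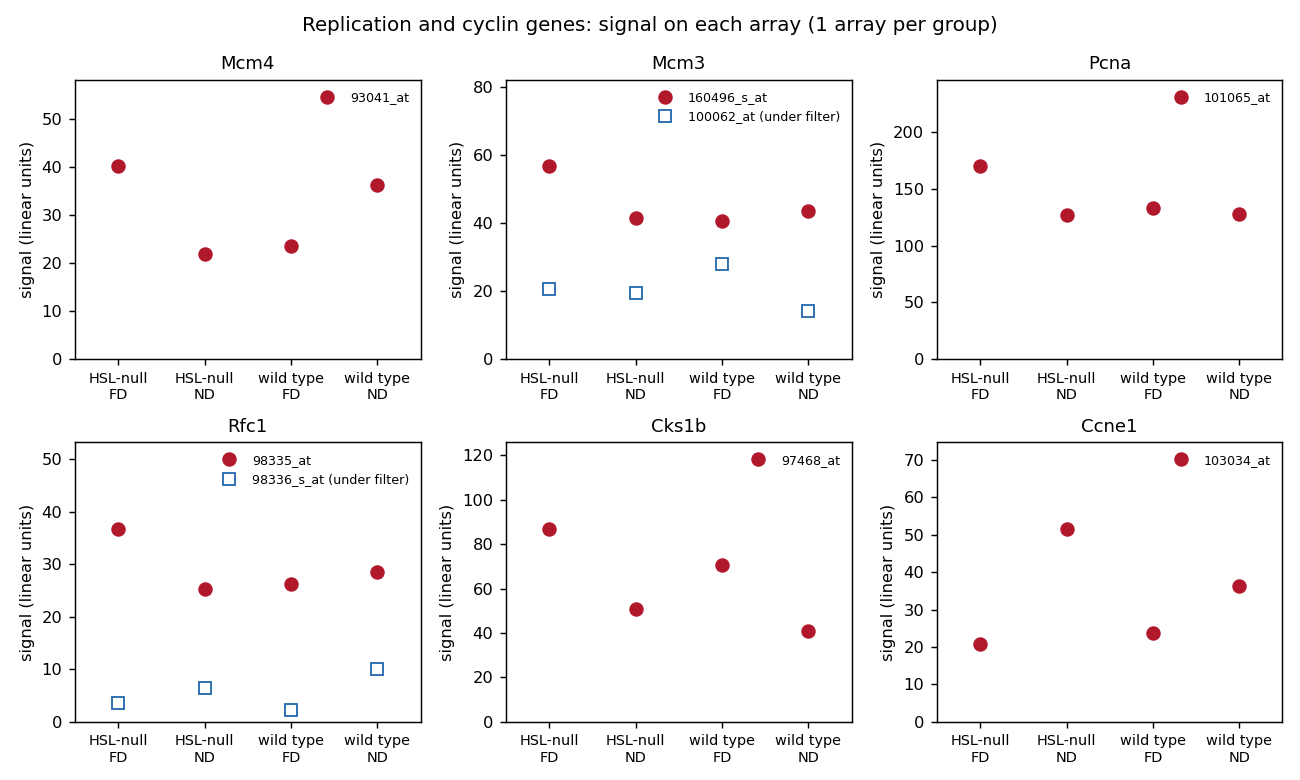
Signals (linear units) of Mcm4, Mcm3, Pcna, Rfc1, Cks1b and Ccne1 on the 4 arrays, 1 point per array and probe set, with open squares for probe sets under the filter. Mcm4, Pcna and Rfc1 are highest in HSL-null liver on FD (40.2, 170.0 and 36.7), Cks1b is high on both FD arrays and Ccne1 is low on both.

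Subunits of the DNA polymerases had no common direction. Over 7 kept probe sets the medians of the 4 comparisons lay between -0.022 and 0.047, and under the other scalings between -0.126 and 0.138, with the sign turned in 3 of the 4 comparisons. Pole3, a histone-fold subunit of polymerase epsilon, had 122.6 and 120.1 in HSL-null liver on FD and ND and 118.4 and 120.2 in wild-type liver on FD and ND, the narrowest range of any kept member, while its dimmer kept probe set had 34.2 and 35.1, against 45.4 and 27.9. Pold2, the B subunit of polymerase delta, had 48.4 and 82.9 in HSL-null liver, against 25 and 82.2 in wild-type liver. It was 3.29-fold lower on FD than on ND in wild type (-1.72) and 1.71-fold lower in HSL-null liver (-0.78), at 1 probe set of relaxed design rules with no other to compare. Pole4 had 25.3 and 28.2, against 38.2 and 40.5, and was lower in HSL-null liver on both diets (-0.52 on ND and -0.59 on FD), but its dimmer probe set had 0.33 and -0.11. None of the 3 genes of origin firing, Cdc6, Cdc7 and Cdc45, passed the filter.

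Cyclins and kinases of G1 and S phase differed little between genotypes. Ccnd1, the main D-type cyclin of hepatocytes, had 219.3 and 218.3 in HSL-null liver on FD and ND, against 207.7 and 250.5 in wild-type liver on FD and ND, and its dimmer probe set 59.6 and 45.4, against 43.7 and 45.2. The largest of its 8 log2 ratios was 0.45. Ccnd3 had 112.7 and 104.3, against 112.9 and 138.9, and Ccnd2, under the filter, 22.7 and 21.3, against 17.7 and 36.0. Both were highest in wild-type liver on ND, where the summed lymphocyte markers were highest too. Of the kept lymphocyte markers Ptprc, Cd52 and Cd79b peaked there, Ltb in HSL-null liver on FD and Ms4a1 in wild-type liver on FD. The summed markers of hepatocytes, Kupffer cells, endothelial cells and exocrine pancreas were also highest in wild-type liver on ND. Those of stellate cells, red blood cells, bile duct, and neutrophils and marrow were not. The part of any of these cells in the Ccnd2 and Ccnd3 values was not tested. Cdk4, the partner of the D-type cyclins, had 211.7 and 225.4, against 231.9 and 218.8, with genotype ratios of 0.04 on ND and -0.13 on FD. Its dimmer kept probe set had 39.1 and 40.6, against 31.4 and 33.5, with 0.28 on ND and 0.32 on FD. Cdk2, the partner of cyclin E, had 36.5 and 32.7, against 37.7 and 37.6.

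Ccne1, which encodes cyclin E1 and acts at entry into S phase, was the 1 member 2-fold lower on FD in HSL-null liver. It had 20.8 and 51.5 in HSL-null liver on FD and ND, against 23.8 and 36.2 in wild-type liver on FD and ND. FD was thus lower than ND in both genotypes, 2.48-fold in HSL-null liver (-1.31) and 1.52-fold in wild-type liver (-0.61). Both FD signals lay under the filter level of 26.9, and with the floor at the median the ratio in HSL-null liver was -0.95. Ccne2 was under the floor on all 4 arrays.

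The 9 kept probe sets of G2 and M phase did not move together with diet. In HSL-null liver 6 were above 0 for FD against ND (median 0.148) and in wild-type liver 4 were (median -0.021). Cks1b, Ccnb2 and Ccna2, chosen here after their values were seen, were higher on FD in both genotypes, while Cdc16, a subunit of the anaphase-promoting complex, had -0.18 in HSL-null and -0.36 in wild-type liver. Cks1b, a small subunit of Cdk complexes that also helps to degrade the inhibitor p27, had 86.8 and 50.9 in HSL-null liver on FD and ND, against 70.5 and 40.8 in wild-type liver on FD and ND, which gave log2 ratios of 0.77 and 0.79 for diet. Both FD arrays were above both ND arrays. Cyclin B2 (Ccnb2) had 41.5 and 31.3, against 46.8 and 29.7, with 0.41 and 0.66, and cyclin A2 (Ccna2) had 34.8 and 28.2, against 34.8 and 25.6, with 0.30 and 0.44. The direction for diet held for these 3 genes under every scaling. Their genotype ratios were between -0.17 and 0.32 with the deposited scaling, and between -0.34 and 0.45 under the other scalings. Cdk1, the mitotic kinase itself, was under the filter at 6.1 and 11.6, against 17.3 and 12.6, and was lowest in HSL-null liver on FD. Cks2, the near relative of Cks1b, had 106.3 and 106.6, against 90.8 and 109.3, with diet ratios of 0.00 and -0.27.

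Genes of mitosis from outside the members were mostly higher on FD than on ND. Of 30 listed genes on the array 9 passed the filter, and 8 of them were above 0 for diet in HSL-null liver (median 0.391) and 7 in wild-type liver (median 0.285), with 0 at 2-fold, where 56.9% and 43.8% of all kept probe sets were above 0. Tubb5, a beta-tubulin gene, was below 0 in both genotypes (-0.02 and -0.22). Under the other scalings 6 or 7 were above 0 in HSL-null liver and 7 in wild-type liver. Mad2l1, of the spindle checkpoint, had 49.4 and 37.3 in HSL-null liver, against 32.5 and 22.7 in wild-type liver. Stmn1, a microtubule destabilizer, had 62.1 and 51.6, against 82.5 and 48.9, Foxm1, a transcription factor of mitotic genes, 49.4 and 29.5, against 51.3 and 36.7, and Smc4, a condensin subunit, 68.9 and 50.8, against 45.2 and 49.9. Another Foxm1 probe set was under the floor on every array, at 2.1 to 2.3, and another of Stmn1 had at most 7.0. The proliferation markers Mki67 and Top2a were not among the 9. Mki67 had at most 13.4 at either of its probe sets, and Top2a at most 1.5, under the floor on every array.

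Other genes of DNA replication differed by comparison. Of 25 listed genes on the array 11 passed, with medians of -0.061 and -0.032 for genotype on ND and FD and of -0.028 and 0.119 for diet in HSL-null and wild-type liver. Above 0 were 5 of 11 on ND and 3 of 11 on FD for genotype, and 5 of 11 in HSL-null and 8 of 11 in wild-type liver for diet. Under the other scalings 2 of 11 were above 0 for genotype on FD (medians -0.214 to -0.199) and 9 of 11 for diet in wild type (medians 0.223 to 0.26). Lig1, the ligase of Okazaki fragments, had 34.7 and 39.8 in HSL-null liver on FD and ND, against 25.2 and 18.4 in wild-type liver on FD and ND, and was the 1 gene at 2-fold (1.11 for genotype on ND). Another Lig1 probe set, under the filter, had 17.5 and 22.2, against 14.8 and 21.9, and a log2 ratio of 0.02 for genotype on ND. Rnaseh2a, an RNase H subunit, had 34.5 and 25.2, against 57.7 and 33.0, the thymidine kinase gene Tk1 107.9 and 110.0, against 69.9 and 97.4, and Mcm10 58.4 and 54.5, against 84.9 and 78.2. Other cell cycle regulators had a median of 0.335 for genotype on FD over 13 of 25 genes, with 10 above 0 (9 under the other scalings) and 0 at 2-fold. There Mnat1, the assembly factor of the Cdk7 kinase, had 85.5 and 84.5, against 42.8 and 56.1, but 26.8 and 28.4, against 26.2 and 29.1, at its dimmer probe set. Cyclin C (Ccnc) had 88.6 and 78.6, against 50.6 and 73.6, the antiproliferative gene Btg1 228.3 and 230.8, against 168.7 and 161.3, and the checkpoint kinase gene Chek2 34.6 and 25.5, against 24.8 and 27.8.

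Plk1, the Polo-like kinase of mitosis, had the widest range of any kept member, but at 1 of its 3 probe sets only. That probe set, with the suffix for a sequence family, had 73.3 and 29.3 in HSL-null liver on FD and ND, against 11.4 and 40.0 in wild-type liver on FD and ND, or 6.43-fold higher in HSL-null than in wild-type liver on FD (2.68). The other kept probe set, with a different letter suffix, had 25.9 and 29.6, against 31.5 and 35.2, with log2 ratios from -0.28 to -0.16. The third, under the filter and with the same family suffix as the first, had 5.3 and 10.4, against 7.9 and 11.0. Both of these were lowest in HSL-null liver on FD, where the first was highest, so the ratio of Plk1 is uncertain in size and direction.

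Strong disagreement between probe sets of 1 member gene lay mainly in Plk1. The 7 genes with a kept pair gave 28 pairs of ratios, with a median difference of 0.35, and 4 pairs (14.3%) were 2-fold or more apart, against 2.98% of pairs over 687 genes. Those 4 were 3 of Plk1 and 1 of Cdkn1a, so the higher share rests mainly on 1 gene. The comparisons share arrays, so the pairs of 1 gene are not independent. The kept Plk1 probe set with a sequence-family suffix was 2-fold different in 3 of the 4 comparisons.

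**Figure D4:**
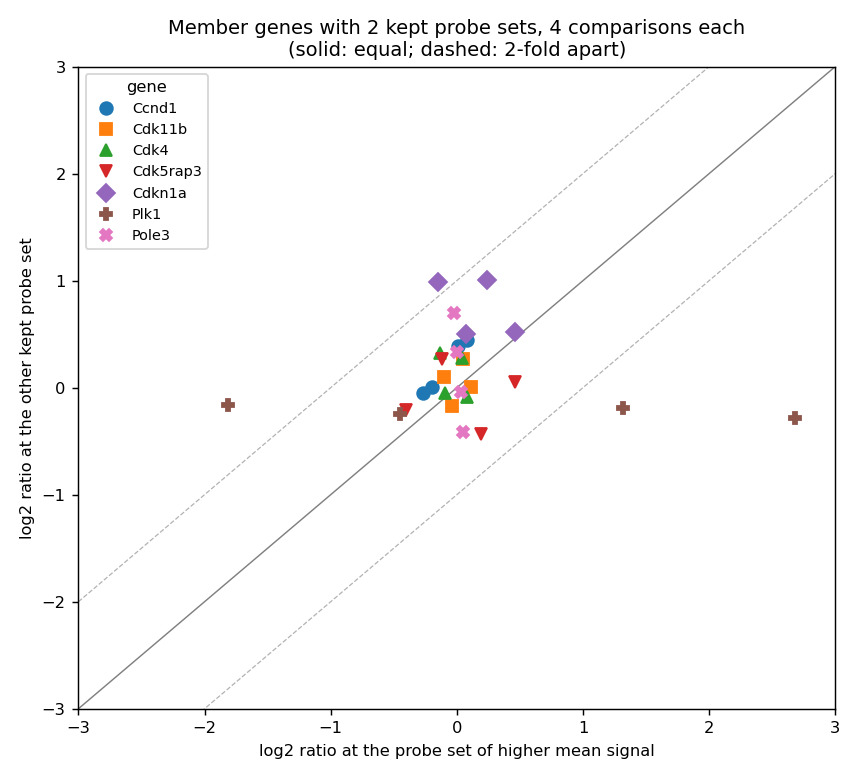
Log2 ratios of the 7 member genes with 2 kept probe sets, at the probe set of higher mean signal (x axis) and at the other (y axis), with 4 points per gene, 1 per comparison. Points of Ccnd1, Cdk4, Cdk11b, Cdk5rap3 and Pole3 lie within 1 of the diagonal, while 3 points of Plk1 and 1 of Cdkn1a lie beyond it.

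Kinases that act on transcription were mostly flat. Cdk8 and Cdk9, of Mediator and of the elongation factor P-TEFb, had 8 log2 ratios between -0.31 and 0.34, and Cdk11b, a kinase of splicing and transcription, 8 between -0.17 and 0.27. Ccnt1, the cyclin partner of Cdk9, had 21.2 and 22.2 in HSL-null liver on FD and ND, against 34.2 and 38.1 in wild-type liver on FD and ND, so both HSL-null arrays lay below both wild-type arrays. Cdk7, the kinase that activates other Cdks and acts in TFIIH, had 31.8 and 26.4, against 19.5 and 33.8. Between genotypes its log2 ratio was -0.36 on ND and 0.71 on FD, with the low value in wild-type liver on FD.

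Of the 9 kept probe sets that match by name only, 7 were below 0 for genotype on FD. Their median was -0.212 on the log2 scale, where all members had 0.043. The median was -0.366 to -0.379 under the other scalings. Cdc42ep4, an effector of Cdc42 in cell shape, had 58.4 and 94.7 in HSL-null liver on FD and ND, against 114.4 and 107.5 in wild-type liver on FD and ND, and its genotype log2 ratio of -0.97 on FD was just under 2-fold. The HSL-null FD array was the low one. Cdc42se2, a small effector of Cdc42, had 38.6 and 31.7, against 33.1 and 48.7, and -0.62 for genotype on ND. Cdc42 itself lay between 383.5 and 411.0 on the 4 arrays. Cdk5 had 107.2 and 132.2, against 144.5 and 104.4, and ratios of both signs.

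Among the 40 probe sets under the filter, 7 were at or under the floor on all 4 arrays, and signals of the rest were low enough that ratios rest on small numbers. Cdc45, a helicase partner, had the widest range of these after Gadd45b, with 33.2 and 7.7 in HSL-null liver on FD and ND, against 29.0 and 17.2 in wild-type liver on FD and ND. It was 4.31-fold higher on FD than on ND in HSL-null liver and 1.69-fold higher in wild-type liver. Pold1, the catalytic subunit of polymerase delta, had 12.5 and 8.5, against 19.0 and 30.2, and was lower in HSL-null liver on both diets, 3.55-fold on ND and 1.52-fold on FD. Its other probe set had 15.6 and 13, against 15.5 and 21.4. Cdc45 and Pold1 were chosen after their values were seen.

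The genotype ratios on the 2 diets share no array. They had opposite signs, each larger than 0.298, and lay 2-fold or more apart in 5 of the 62 kept members (8.06%), against 217 of all 5615 kept probe sets (3.86%). The 5 were Gadd45a, Gadd45b, Mcm4, Cdk7 and the Plk1 probe set with a family suffix, and each was lower in HSL-null than in wild-type liver on ND and higher on FD. Under quantile and loess scaling 5 members and under median scaling 7 met these conditions, against 3.42%, 3.49% and 4.36% of all kept probe sets; Cdk7 was lost in all 3, the dimmer kept probe set of Pole3 was gained in all 3 with the signs the other way round, and Ccne1 and Cdk5 under median scaling. These shares were not matched for signal. Means lay under 60 in 31 of the 62 members, against 1828 of the 5615 kept probe sets. Gadd45b, Mcm4, Cdk7 and the Plk1 probe set had means of 32.0, 30.5, 27.9 and 38.5. For Gadd45b, Mcm4 and Cdk7 the HSL-null ND and wild-type FD signals lay under the filter level of 26.9. With a pseudocount of 16 the Mcm4 ratios were -0.46 on ND and 0.51 on FD, under 2-fold apart. The highest signal among the 4 arrays was in HSL-null liver on FD for 20 of the 62 kept members (32.3%), against 29.2% of all kept probe sets, and in HSL-null liver on ND for 7 (11.3%), against 16% of all. The lowest signal was in HSL-null liver on ND for 21 of the 62 (33.9%), against 19.7% of all, and in wild-type liver on FD for 18 (29.0%), against 36.2% of all. These counts of highest and lowest arrays were made with the deposited scaling only, and small offsets between arrays moved with the scaling.

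**Figure D5:**
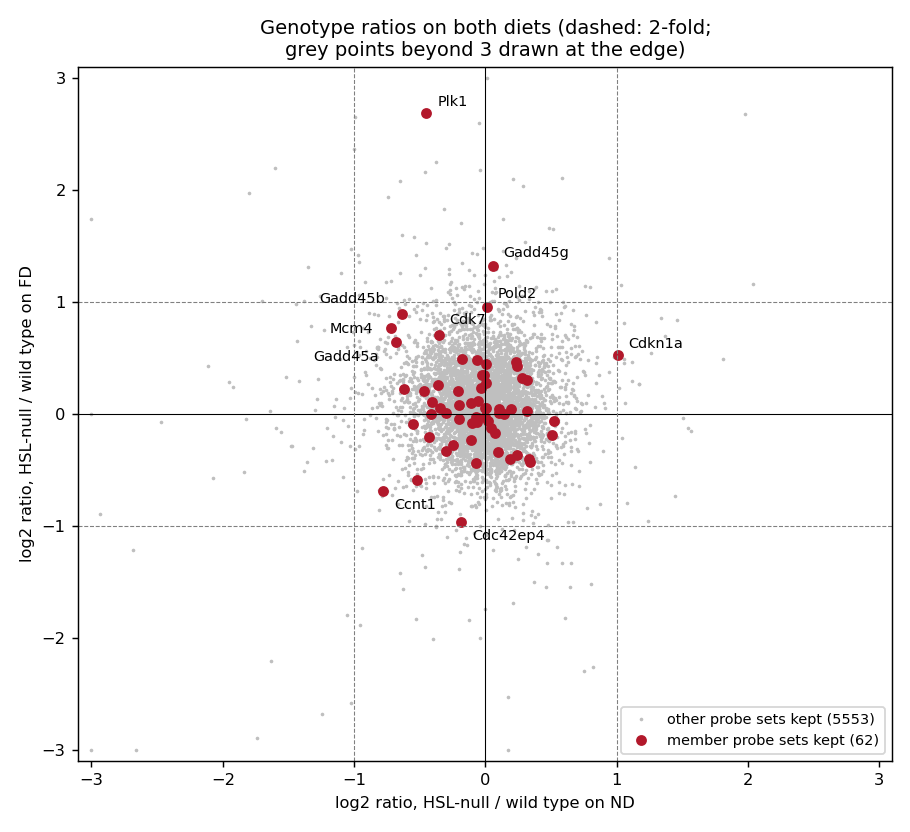
HSL-null over wild-type log2 ratio on ND (x axis) and on FD (y axis) for the 62 kept member probe sets (red) and the 5553 other kept probe sets (grey), with dashed lines at 2-fold. Most members lie in the grey cloud; Gadd45a, Gadd45b, Mcm4, Cdk7 and Plk1 are in the upper left, Gadd45g and Pold2 near the top of the cloud, and Cdkn1a at the right.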

How the data were processed

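Total liver RNA of 1 pool per group was hybridised to 1 MG_U74Av2 array each. The deposited values are linear intensities, 1 for each probe set on each array, made by the authors with MAS5, per the submitters' processing notes, which list no version. The deposited values had a 2% trimmed mean between 100.085 and 100.094 on each array, so they had been scaled to a common mean. The deposited run settings named 2 solution lots, 1 for each genotype, and the same chip lot and scan day for all arrays. Depth does not apply to arrays, and their number limits the precision.

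Probe sets were named from the platform annotation: of 12422 non-control probe sets 10833 had 1 gene, 396 several and 1193 none, and those with several or none were not named or counted. All 77 member gene identifiers matched RefSeq (GRCm38.p6). Signals were raised to the floor of 6.1 and taken to log2, and ratios were HSL-null over wild type and FD over ND. Counts at 2-fold were set beside the same count over the 5615 kept probe sets with 1 gene. The code was tested on simulated data with known fold changes.

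Values on all arrays are given for kept members at 2-fold in any comparison and for a list of central genes, with up to 4 genes of each further list; members named beyond that were chosen after their values were seen. The members, roles and lists were chosen with earlier results of these data known. Alternatives were quantile normalization, median scaling, cyclic loess (limma 3.58.1), a floor at the median (26.7), a pseudocount of 16, 3 other filters, 2 other choices of probe sets, fewer members and a 1.5-fold limit. Python 3.11.15, numpy 2.4.6 and pandas 2.3.3 were used.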

Additional observations from a re-analysis of the deposited data

Results flagged for a closer look

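In 5 kept members the genotype ratio had opposite signs on the 2 diets, lower in HSL-null than in wild-type liver on ND and higher on FD. The difference of the log2 ratios, FD minus ND, was 3.13 for the Plk1 probe set with a family suffix, 1.53 for Gadd45b, 1.49 for Mcm4, 1.32 for Gadd45a and 1.06 for Cdk7. With 1 array per group these differences were not tested. The other kept Plk1 probe set had a difference of -0.03. Gadd45a, Gadd45b, Mcm4 and Cdk7 had the same signs under quantile, median and loess scaling, but the genotype ratios of Cdk7 then lay between -0.23 and -0.22 on ND and between 0.53 and 0.54 on FD. The ND ratios were then smaller than 0.298 and the difference was under 2-fold, so Cdk7 no longer met the conditions.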

How the results depend on the processing

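Medians of the members were small and their sign depended on the scaling: median scaling turned it in all 4 comparisons, to 0.075 and -0.125 for genotype on ND and FD (-0.055 and 0.043 as reported) and to -0.056 and 0.053 for diet in HSL-null and wild-type liver (0.1 and -0.089 as reported). Quantile and loess scaling turned it for genotype on FD (-0.055 and -0.058) and for diet in wild type (0.021 and 0.015). The counts of members at 2-fold, 1 and 2 for genotype on ND and FD and 3 and 2 for diet in HSL-null and wild-type liver, moved more, since each rests on few probe sets. Without a filter they were 5, 7, 6 and 4, with the stricter filter (mean at least 97.1, 20 members) 0 in each, and at 1.5-fold 6, 10, 10 and 10. Filtering on the highest signal gave 3 for genotype on ND and 5 for diet in HSL-null liver. A floor at the median gave 0 for genotype on ND and 1 for diet in wild type, and a pseudocount of 16 gave 0 for genotype on ND and 0 for diet in HSL-null liver. One probe set per gene gave 0 for genotype on ND. Leaving out letter suffixes gave 1 for genotype on FD and 0 for diet in wild type. Of 40 called ratios of named members under the 5 alternatives of scaling and floor, 33 stayed at 2-fold and 0 changed sign. A floor or pseudocount cannot turn a sign, so those settings did not test it. The 40 include the ratios of the Plk1 probe set with a family suffix, which its other probe sets did not share. With a pseudocount of 16, Gadd45a had 0.97 and Ccne1 -0.88 for diet in HSL-null liver and Cdkn1a 0.69 for genotype on ND. For the rest the cause was not tested. No paired analysis was possible because each group has 1 array. Low signals limit 40 of the 102 member probe sets.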
